A study of Mus musculus with 19 samples.

Results

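Dense clusters of TEAD peaks in mouse liver are stretches of the genome where many TEAD binding sites lie close together. They were chosen by the positions of the TEAD peaks after 7 days of YAP induction (7 d): on chromosomes 1 to 19 and X, neighbouring peaks were chained when the next peak started at most 12.5 kb beyond the furthest end so far, and chains of 8 or more peaks were kept. The rule kept 403 of 20036 chains, single peaks included, with 4164 of 38946 TEAD peaks. The number of peaks in a cluster and its tight spacing are therefore set by the rule, and they are given as a description.

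The peaks came from chromatin immunoprecipitation followed by sequencing (ChIP-seq) of whole liver from C57BL/6 mice, with an antibody against either TEAD or YAP. The 19 samples formed 6 groups. WT livers had the genotype ROSA26-rtTA-IRES-EGFP; WT and were on doxycycline food for 7 days. Transgenic livers carried ROSA26-rtTA-IRES-EGFP with tetYAP, and received the same food for 3 days (3 d) or for 7 days, so doxycycline itself was common to all groups. Each group had 3 samples, except TEAD at 7 d with 4. According to the study's methods, the inducible transgene coded for a constitutively active YAP and an albumin-driven Cre directed its expression to hepatocytes, while the tissue used for ChIP also held the other cells of the liver. The TEAD antibody was raised against TEAD4 and, per the methods, also detects other members of the family. The replicates of a group were merged before peaks were called, so each group is 1 peak list, no spread between replicates can be computed, and no difference below has a replicate check or a p-value. Shares are given with their 95% Wilson interval, which covers counting error over peaks or clusters only; peaks of the same cluster are not independent.

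TEAD proteins are the DNA-binding partners of YAP. YAP is a coactivator with no DNA-binding domain of its own, which the kinases of the Hippo pathway keep out of the nucleus, and it reaches chromatin mainly through TEADs, whose binding sites carry the core letters GGAATG. In hepatocytes, active YAP is known to drive proliferation and a loss of the differentiated state. Closely spaced binding sites of a factor are often stitched into larger regions, which tend to lie around genes of cell identity and around the factor's own target genes. Histone marks were not analysed here, so the clusters are described by peak positions alone.

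The lists differed in depth and in the settings of the peak caller. The merged libraries held 34260362 to 55032002 tags. The caller's fragment length was 250 bp for every YAP list, whereas among the TEAD lists it was 400 bp in WT, 207 bp at 3 d and 206 bp at 7 d. On the chromosomes used, the TEAD lists held 5683 peaks in WT, 36420 at 3 d and 38946 at 7 d, and the YAP lists 132, 91 and 1456. Fragment length and depth moved with the condition, and their part in the differences between lists was not tested. A second point touches the results on YAP. In 5 places of the genome, 5 or more WT YAP peaks followed each other at gaps of at most 50 kb, and 1 of these, on chromosome 1, held 60 WT YAP peaks over chr1:90108498-90207542 and took in 2 of the clusters, those at Ugt1a1/Heatr7b1 and at Heatr7b1/Hjurp/Trpm8. Values on YAP for the clusters of the rule are given with and without these 2, and those under other settings of the rule only with them.

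The sequence around the summit of the strongest peak is shown for 7 clusters to which the results below return, so that the TEAD core can be seen in place. The windows are 100 bases of the plus strand of mm9 (NCBIM37), centred on the summit, and capitals mark GGAATG or its reverse complement CATTCC. Those of Alb/Afp (chr5:90879164-90879263, intergenic, upstream of Alb), Egfr (chr11:16639271-16639370, intergenic, upstream of Egfr) and Lmnb2/Gadd45b (chr10:80424053-80424152, an intron of Gng7) hold the core 2 times. Those of Wwc1 (chr11:35733484-35733583, an intron of Wwc1) and Nuak2 (chr1:134230413-134230512, intergenic, downstream of the Nuak2 start) hold it 1 time. That of the cluster near Amotl2 (chr9:102665977-102666076, intergenic) and that near Rab11fip4 (chr11:79590208-79590307, intergenic) do not hold these letters.
Alb/Afp: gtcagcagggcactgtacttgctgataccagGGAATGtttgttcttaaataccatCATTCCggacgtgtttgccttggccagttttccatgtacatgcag
Egfr: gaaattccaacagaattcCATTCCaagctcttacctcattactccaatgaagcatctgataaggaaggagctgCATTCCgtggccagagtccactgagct
Lmnb2/Gadd45b: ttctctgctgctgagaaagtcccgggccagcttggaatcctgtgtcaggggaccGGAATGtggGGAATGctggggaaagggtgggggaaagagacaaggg
Wwc1: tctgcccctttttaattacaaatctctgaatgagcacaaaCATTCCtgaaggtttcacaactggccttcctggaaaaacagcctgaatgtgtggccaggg
Nuak2: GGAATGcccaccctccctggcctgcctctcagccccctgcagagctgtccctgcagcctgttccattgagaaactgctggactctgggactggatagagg
near Amotl2: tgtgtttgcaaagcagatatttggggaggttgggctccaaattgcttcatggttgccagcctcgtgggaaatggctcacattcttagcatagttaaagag
near Rab11fip4: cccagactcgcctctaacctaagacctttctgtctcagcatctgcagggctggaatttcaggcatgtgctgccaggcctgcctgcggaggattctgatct

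The clusters were 10.8 to 86.6 kb long, with a median of 35.9 kb (95% interval of the median 34.0 to 36.8). They held 8 to 32 TEAD peaks, with a median of 9, and the gap between neighbouring peaks within a cluster had a median of 2620 bp over clusters. Peaks covered 5.33% to 40.0% of a cluster, so that even the densest ones were mostly sequence between peaks. Together the clusters spanned 15.5 Mb, 0.588% of the chromosomes used, and held 10.7% of the 7 d TEAD peaks. Chains became fewer with more peaks, apart from small rises among the rare chains of over 12 peaks, and there was no gap at the threshold. Chains of 8 peaks, just inside it, numbered 130, were 28.3 kb long at the median and had a median fold enrichment of 7.54, with 26.9% of them holding a 7 d YAP peak. Chains of 7 peaks, just outside it, numbered 168, were 27.0 kb long and had a median fold enrichment of 7.17, with 22.6% of them holding a YAP peak.

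**Figure D1:**
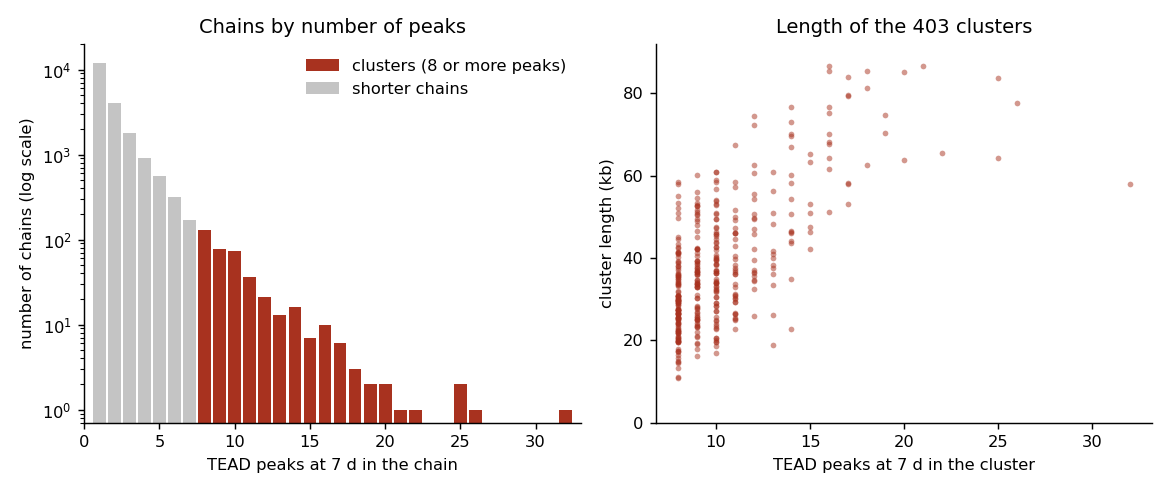
Left, number of chains of 7 d TEAD peaks (log scale) by the number of peaks they hold, with clusters in red and shorter chains in grey; right, length in kb of each of the 403 clusters against its number of peaks. The counts fall from 11879 single peaks to 1 chain of 32 without a gap at 8 peaks, and clusters with the same number of peaks differ widely in length.

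The clusters lay on every numbered chromosome, from 0.799 per 10 Mb on chromosome 14 to 3.10 per 10 Mb on chromosome 19, and none lay on X, which held 616 TEAD peaks. Most stood alone: among 384 neighbouring pairs on the same chromosome the median distance was 3053.3 kb, and 11 pairs were at most 25 kb apart. Several of these close pairs lay at genes of liver metabolism or of the YAP response. They included Gstm7/Gstm6/Gstm3 and Gstm1/Gstm4, glutathione transferases, which were 15.4 kb apart. Sik3/Apoa1 and Apoa5/Zfp259/Bud13, at an apolipoprotein locus, were 14.3 kb apart, and Amotl2 and the cluster near Amotl2 were 15.2 kb apart. Amotl2, a scaffold protein that binds YAP and is also induced by it, thus had a pair of clusters at its locus.

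The 10 clusters with most peaks held 19 to 32 each. The largest, with 32 peaks over 57.9 kb, was the one at Heatr7b1/Hjurp/Trpm8 in the domain rich in YAP peaks. The cluster at Alb and Afp, the genes of adult and fetal serum albumins, held 26 peaks over 77.6 kb (chr5:90843309-90920905). Dlc1, a GTPase-activating protein, had 25 peaks over 83.7 kb within the gene. Zmiz1, a transcriptional coregulator, had 25 peaks over 64.4 kb within the gene. Egfr, the receptor of epidermal growth factor, had 22 peaks over 65.5 kb.

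The next 5 in order held 19 to 21 peaks each. The cluster near Rab11fip4 (chr11:79517517-79604127), with no coding start inside and the genes of Mir193 and Mir365-2 within it, was the longest of all, at 86.6 kb. The others lay at Sirt4/Pxn/Rplp0, where Pxn codes for paxillin of focal adhesions, within Wwc1, which codes for a scaffold of the Hippo pathway, at Arid5b, and at Lmnb2/Gadd45b. The tightest clusters were much shorter: that at C9, a complement component, held 8 peaks in 10.8 kb, or 7.39 peaks per 10 kb, and that at Mef2d held 8 peaks in 11.2 kb. Cald1/Npn2, with the actin-binding caldesmon, followed with 13 peaks in 19 kb. The cluster at Frmd8, which overlapped the gene body but not its start and took in the noncoding RNA Neat1, had 14 peaks in 22.8 kb, and Dbp/Sphk2/Rpl18, with the circadian factor Dbp, had 8 peaks in 13.3 kb.

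Within a cluster, strong and weak peaks stood side by side. Fold enrichment is the pileup at the summit over the local background, as the peak caller gave it, and it was compared only within a list. The strongest peak of a cluster reached 6.61 to 73, with a median of 24.3 (22.1 to 26.2), whereas the weakest had a median of 4.48. The highest value was 5.36 times the lowest at the median cluster. In 281 of the 403 clusters, 69.7% (65.1% to 74.0%), the strongest peak belonged to the highest of 10 equal groups of all 7 d TEAD peaks by fold enrichment, and 190 clusters, 47.1%, held a peak of the highest and a peak of the lowest group. The strongest peak took a median of 23.4% of the summed pileup of its cluster. The rule's minimum of 8 peaks favours such extremes, since more peaks give more chances of a very strong and a very weak one. No comparison was made with sets of as many peaks drawn from the whole list. Whether this range of strengths sets the clusters apart was therefore not tested.

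Taken over all their peaks, the clusters were close to the rest of the list. The median fold enrichment was 7.49 (7.30 to 7.54) for the cluster peaks and 7.30 (7.30 to 7.40) for all 7 d TEAD peaks. The median peak length was 403 bp for cluster peaks and 372 bp for all. The clusters with the highest median were led by the one near Amotl2, at 24.5 over 9 peaks, and by Tgfa, which codes for a ligand of the EGF receptor, at 22.6 over 9 peaks. Nuak2, a kinase gene activated by YAP, followed at 18.4 over 9 peaks. Cdc42ep1, an effector of Cdc42, stood at 15.7 over 10 peaks and the cluster near Tpcn2 at 15.6 over 9 peaks.

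The clusters were present in part in livers without the transgene. In WT livers 716 of the 4164 cluster peaks overlapped a TEAD peak by at least 1 bp, 17.2% (16.1% to 18.4%), beside 14.1% of all 7 d TEAD peaks. In whole tissue, more cells with a bound site and more binding per cell cannot be told apart. Without the 2 clusters of the YAP-rich domain the share was 16.4% (15.3% to 17.5%). The share depended on the unequal length of the lists: among as many of the strongest 7 d peaks as the WT list holds, 59.2% (55.6% to 62.8%) of 719 cluster peaks were at a WT peak, beside 52.4% of all. Inside a cluster the WT list had 0 to 25 peaks, with a median of 2: 79 clusters held none, 122 held 1, 112 held 2 and 90 held 3 or more. The WT list thus marked 324 of the 403 clusters, 80.4% (76.2% to 84.0%), mostly at 1 or 2 of their peaks, while 12.8% of single peaks, 29.5% of chains of 2 to 3 peaks and 51.3% of chains of 4 to 7 peaks held a WT peak. A longer chain offers more room for a peak, so this rise with chain size is not a measure of WT binding per peak.

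The WT peak tended to lie where the 7 d list had its strongest peak. In 246 of the 324 clusters with a WT TEAD peak, 75.9% (71.0% to 80.3%), the strongest 7 d peak overlapped it. Cluster peaks at a WT peak had a median fold enrichment at 7 d of 18.5 (16.8 to 19.3). Those at a 3 d peak but at no WT peak had 7.54 (7.40 to 7.78), and those at neither had 5.66 (5.42 to 5.70). Compared within the highest of the 10 groups by fold enrichment, 68.5% (64.3% to 72.5%) of cluster peaks and 57.6% (55.9% to 59.2%) of the other peaks were at a WT peak, whereas in the next group the shares were 31.6% (27.4% to 36.1%) and 31.9% (30.3% to 33.4%). By the rule that defined the clusters, the WT list itself held 2 chains of 8 or more peaks, and the 2 clusters of the YAP-rich domain were the ones that overlapped them. Outside that domain the clusters with most WT peaks were those at Alb/Afp, at Uvrag/Dgat2, where Dgat2 makes triglycerides, and at Mtss1, which codes for an actin-binding protein, with 7 each.

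After 3 days most of the cluster peaks were already called. The 3 d list had a TEAD peak in all 403, between 2 and 37 per cluster with a median of 8, and 251 held 8 or more. Of the cluster peaks, 3202 overlapped a 3 d peak, 76.9% (75.6% to 78.2%), beside 71.2% of all 7 d TEAD peaks. The strongest peak of a cluster was at a 3 d peak in 394 of 403, 97.8% (95.8% to 98.8%). Strong peaks elsewhere mostly were too: of the peaks outside clusters in the highest of the 10 groups by fold enrichment, 94.0% (93.1% to 94.7%) were at one. By the same rule the 3 d list gave 362 clusters, and 238 of the 403 clusters at 7 d, 59.1% (54.2% to 63.8%), overlapped one of them, as did 237 of the 362, 65.5% (60.4% to 70.2%), in the other direction. Since the clusters were chosen for many peaks at 7 d, a higher number at 7 d than at 3 d was favoured by the choice: 275 held more at 7 d, 75 held fewer and 53 held as many.

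**Figure D2:**
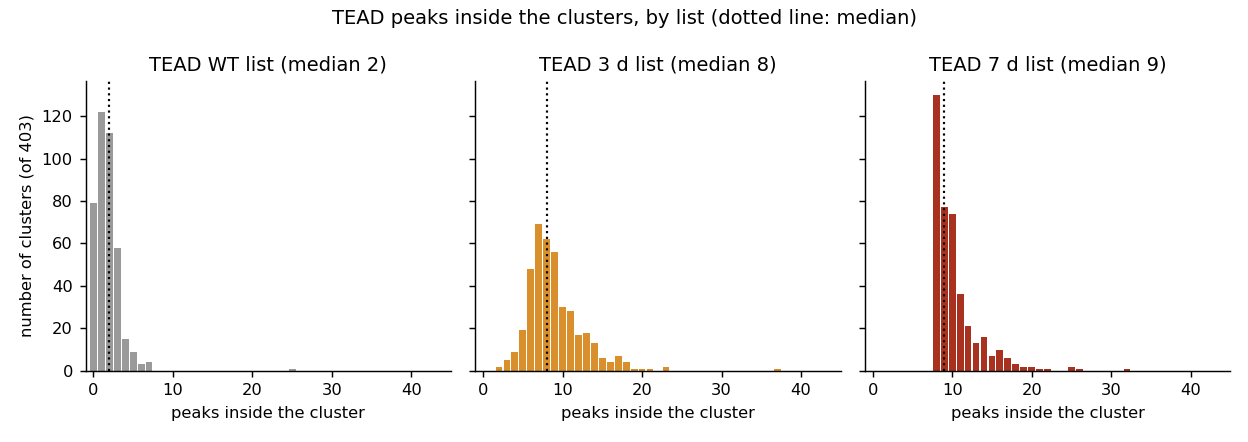
Number of clusters (of 403) by the number of TEAD peaks inside them in the WT, 3 d and 7 d lists, with the median as a dotted line. The WT list sits at 0 to 7 peaks apart from 1 cluster at 25, and the medians are 2, 8 and 9; the 7 d panel starts at 8 because of the rule.

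Peaks seen at 7 d alone were among the weaker members of the clusters. Neither the WT nor the 3 d list had a peak at 957 cluster peaks, 23.0% (21.7% to 24.3%), beside 28.7% of all 7 d TEAD peaks. A cluster held 0 to 9 of them, with a median of 2. The highest number, 9, was found at Dlc1, at Sirt4/Pxn/Rplp0 and near Rab11fip4. The gene of osteopontin, Spp1, which marks biliary cells and is secreted in injured liver, lay in a cluster of 8 peaks of which 6 were seen at 7 d alone. The opposite case was rarer than elsewhere in the genome: of 3637 TEAD peaks of the 3 d list inside the clusters, 465 had no 7 d peak, 12.8% (11.7% to 13.9%), against 25.4% (24.9% to 25.9%) outside, but the spans were chosen for many 7 d peaks, which favours this.

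YAP, the protein that was induced, was called in a minority of the clusters. At 7 d, 130 of 403 clusters, 32.3% (27.9% to 37.0%), held a 7 d YAP peak, beside 6.42% of all chains. Without the YAP-rich domain it was 128 of 401, 31.9% (27.5% to 36.6%). The share rose with chain size, which again gives more room: 3.38% of single peaks, 8.01% of chains of 2 to 3 peaks and 14.9% of chains of 4 to 7 peaks held one. Counted per peak, 207 cluster peaks overlapped a 7 d YAP peak, 4.97% (4.35% to 5.67%), beside 3.58% of all 7 d TEAD peaks. Without the 2 clusters of the YAP-rich domain it was 167 of 4119, 4.05% (3.49% to 4.70%), an interval that overlaps that of chains of 2 to 3 peaks, 3.51% (3.21% to 3.83%). Within the highest of the 10 groups by TEAD fold enrichment the shares were 30.3% (26.4% to 34.4%) in clusters, 30.1% without those 2, and 29.2% (27.7% to 30.8%) elsewhere.

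Where a cluster held YAP, it was mostly at the strongest TEAD peak, in 111 of the 130 clusters or 85.4% (78.3% to 90.4%), and in 109 of 128, 85.2%, without the YAP-rich domain. YAP was mostly at strong TEAD peaks elsewhere too. Of the 1187 TEAD peaks outside clusters that overlapped YAP, 993 were in the highest of the 10 groups by fold enrichment. In the clusters without the domain it was 150 of 167. The TEAD fold enrichment of cluster peaks that overlapped YAP had a median of 29.0 (25.8 to 31.5), and that of cluster peaks without YAP was 7.30 (7.09 to 7.44). The 2 clusters of the domain gave 40 of the 207 peaks at YAP, and without them these medians were 32.0 (29.8 to 36.2) and 7.30. Several YAP peaks in a cluster were uncommon, with 2 or more in 32 clusters, or 30 without the domain. Outside the YAP-rich domain the highest number was 5, at Amotl2, followed by 3 each in 7 clusters, among them the one near Amotl2, Alb/Afp, Oraov1/Ccnd1, with the cyclin D1 gene, and Myl12b/2900073G15Rik, with a regulatory light chain of myosin.

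The YAP lists of WT and 3 d livers reached few clusters. At 3 d, 34 cluster peaks were at a YAP peak, 0.817% beside 0.131% of all 7 d TEAD peaks, and in WT 38 were, 0.913% beside 0.128% of all. Nearly all lay in the YAP-rich domain: outside it, 3 cluster peaks, 0.0728%, were at a 3 d YAP peak and 2, 0.0486%, at a WT YAP peak. The 3 clusters outside the domain with a 3 d YAP peak were Alb/Afp, Pddc1/Cend1/Slc25a22 and Itga1/Pelo, and the highest fold enrichment of YAP in them was 5.80, 13.0 and 5.99 at 3 d and 13.4, 24.9 and 11.3 at 7 d. Both WT YAP peaks outside the domain were in the Alb/Afp cluster. The domain differed from this in holding many YAP peaks also without the transgene: its larger cluster had 26 in WT, 32 at 3 d and 44 at 7 d, and its smaller one 20, 16 and 28. Its 45 TEAD peaks at 7 d were weak, with a median fold enrichment of 4.61 (4.23 to 4.97), beside 7.54 in the other clusters. The TEAD core stood within 300 bases centred on the summit in 20% (10.9% to 33.8%) of them, beside 38.4% in the other clusters. What the peaks of the domain reflect was not tested.

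**Figure D3:**
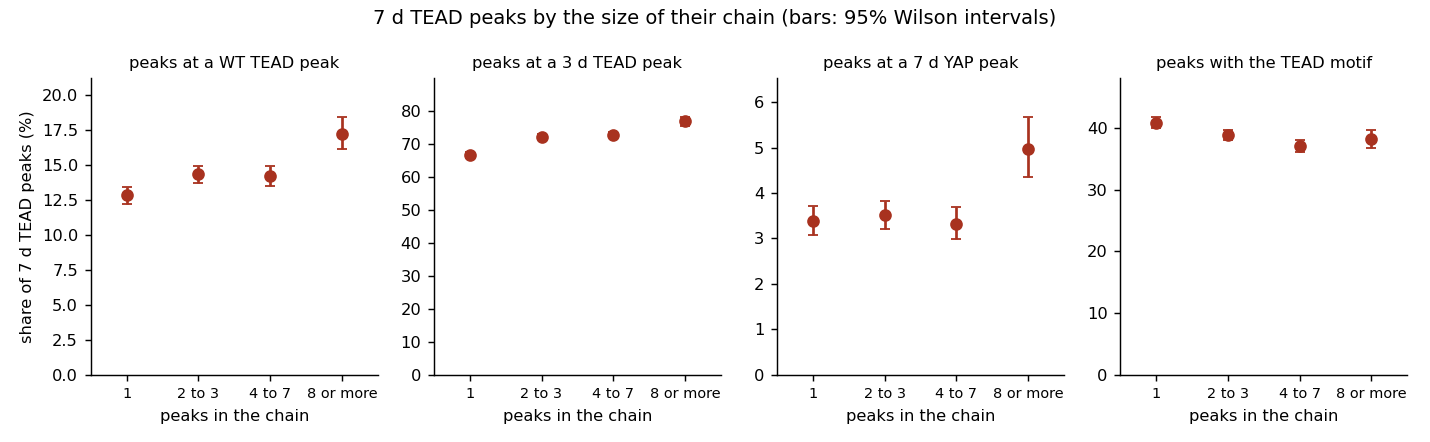
Share of 7 d TEAD peaks, by the number of peaks in their chain, that overlap a WT TEAD peak, a 3 d TEAD peak or a 7 d YAP peak, or that hold the TEAD core in 300 bases; error bars are 95% Wilson intervals. The shares at WT, 3 d and YAP peaks are highest for chains of 8 or more peaks (17.2%, 76.9% and 4.97%, the last 4.05% without the YAP-rich domain), and the share with the core lies between 37.1% and 40.9% in every class.

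Inside the Alb/Afp cluster the strongest summits of the 3 TEAD lists coincided. The strongest 7 d TEAD peak, at a fold enrichment of 72.3, lay upstream of Alb at 35.9 kb from the cluster start, at the window shown above with the core 2 times. The same place had 27.1 in the WT list and 47.7 in the 3 d list. It also had a YAP peak in all 3 YAP lists, at 4.64 in WT, 5.80 at 3 d and 13.4 at 7 d. Values of different lists are not on a common scale, because depth and fragment length differ. The next strongest TEAD peaks at 7 d, at 53.2 kb with 39.9 and at 17.1 kb with 34.2, also had WT peaks, at 10.7 and 7.44. The 3 peaks seen at 7 d alone in this cluster were weak, between 4.34 and 5.43.

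The Amotl2 cluster (chr9:102616076-102638848) held 11 TEAD peaks over 22.8 kb at 7 d, 7 at 3 d and 3 in WT. Its strongest peak lay at the Amotl2 promoter with a fold enrichment of 59.6, and the same place had 48.6 at 3 d and 23.4 in WT. The 2 other WT peaks of the cluster, with 17.8 and 11.3, stood at 7 d peaks of 35.9 and 47.4. Each of these 3 places had a YAP peak at 7 d, with 10.7, 7.02 and 5.24. The peak at 2.09 kb from the start had 31.4 at 7 d and 10.7 at 3 d, with a YAP peak of 5.08 and no WT peak. In the second cluster at this locus, near Amotl2 (chr9:102654027-102687077), the strongest 7 d TEAD peak had 54.4 and the strongest WT peak, at another place, had 30.5.

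The cluster near Rab11fip4 was of the other kind. It held 21 TEAD peaks at 7 d, 17 at 3 d and 1 in WT, with no YAP peak in any list. Its fold enrichments at 7 d ranged from 3.64 to 14.7, and the strongest peak had neither a WT nor a 3 d peak and no TEAD core in the window shown above. The only WT peak, with 5.11, stood at a 7 d peak of 13.1 and a 3 d peak of 9.10.

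**Figure D4:**
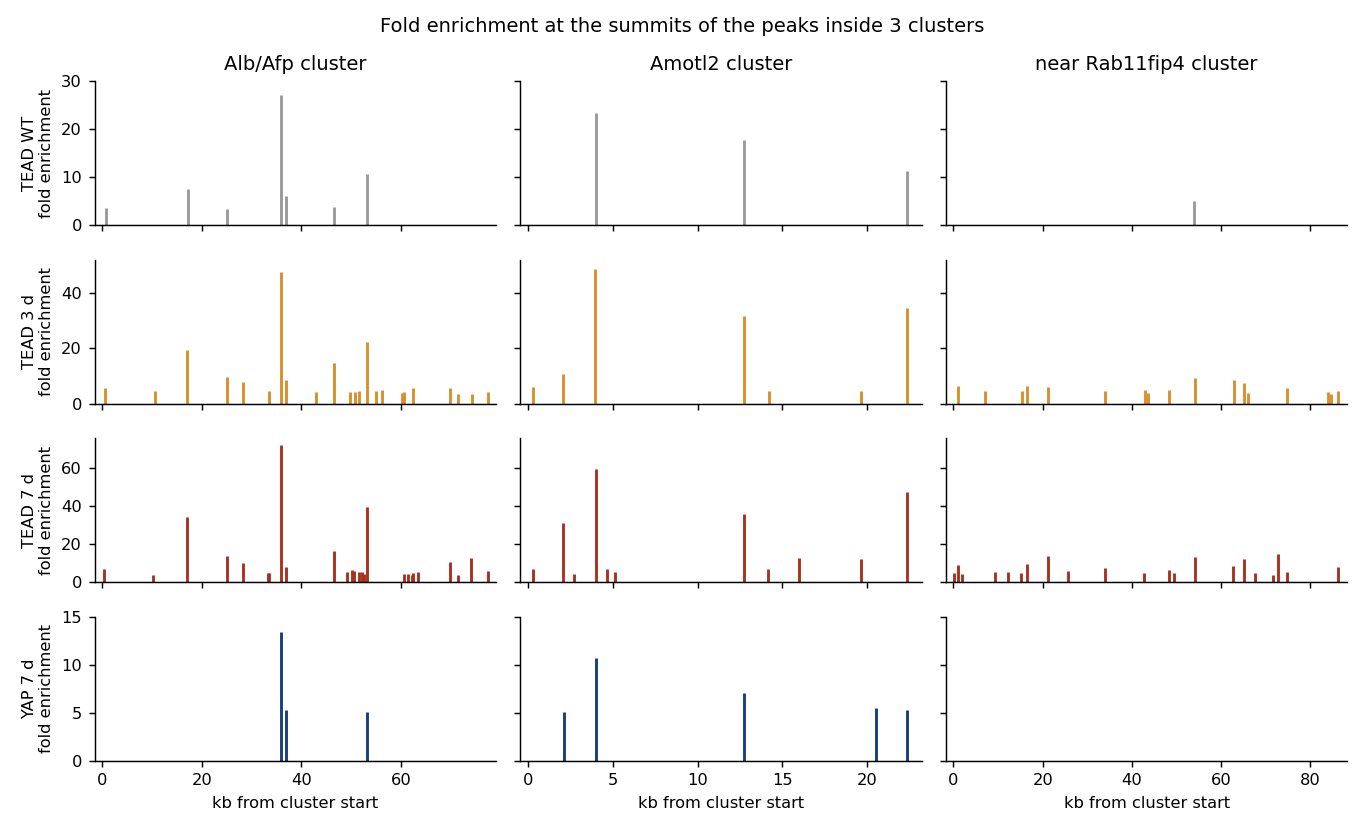
Fold enrichment at the summit of each peak inside the Alb/Afp, Amotl2 and near Rab11fip4 clusters, against the distance in kb from the cluster start, in the TEAD lists of WT, 3 d and 7 d livers and the YAP list at 7 d; each row has its own scale. In the first and second cluster the tallest 7 d TEAD peaks (72.3 and 59.6) stand where the tallest WT, 3 d and YAP peaks stand, and the third has 1 WT peak and no YAP peak.

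Most cluster peaks lay away from promoters, as in the whole list. With promoters defined as 2000 bp before to 1000 bp after a start in the annotation, 1165 cluster peaks, 28.0% (26.6% to 29.4%), overlapped one, beside 29.2% of all 7 d TEAD peaks. A further 45.3% (43.8% to 46.8%) lay in gene bodies, beside 39.7% of all, and 26.7% (25.4% to 28.1%) were intergenic, beside 31.1% of all. The strongest peak of a cluster was at a promoter in 102 of 403, 25.3% (21.3% to 29.8%). Even so, 336 clusters had a peak at a promoter and 326 held the start of a coding gene, while 141 held 2 or more starts, 75 lay wholly inside the body of a single coding gene and 37 touched no coding gene.

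The TEAD core was as common in cluster peaks as in others. The letters GGAATG, on either strand, stood within 300 bases centred on the summit in 1592 cluster peaks, 38.2% (36.8% to 39.7%), beside 39.0% of all 7 d TEAD peaks. In windows of the same length 2000 bp away the shares were 16.0% and 15.7%. The core occurred 2 or more times in 6.60% of cluster peaks and 6.97% of all. Within the clusters it followed peak strength: it was found in 63.1% (58.8% to 67.2%) of the peaks of the highest of the 10 groups by fold enrichment and in 24.7% (21.1% to 28.8%) of those of the lowest, while the other peaks had 63.3% and 27.0%. Of cluster peaks at a YAP peak 60.9% (54.1% to 67.3%) held it, against 37.0% (35.6% to 38.6%) of those without, and without the YAP-rich domain these shares were 71.3% (64.0% to 77.6%) and 37.0%. Of those at a WT peak 52.1% (48.4% to 55.7%) held it. The strongest peak held it in 242 of the 403 clusters, 60%.

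Letters of other liver factors, searched in the same windows and on both strands, were likewise about as frequent as in the whole list. FOXA (TGTTTAC) stood in 7.44% of cluster peaks and 7.64% of all. HNF4A (CAAAGTCCA or CAAAGGTCA) stood in 3.72% and 3.78%, AP-1 (TGANTCA) in 11.2% and 11.9%, and CEBP (TTNNGCAA) in 18.8% and 19.5%. The palindromic NF1 motif was found in 5 cluster peaks, 0.120% beside 0.0642% of all. A match is a description of the letters and does not show binding, and no share was tested.

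Genes of several liver and YAP-related groups lay in the clusters. Of 22208 coding genes, 698 had a body that overlapped a cluster, 3.14%, and 615 had a start inside a cluster, 2.77%. The lists below were chosen with earlier results of these data known, and genes of a locus share a cluster, so each is given as a count beside this background and with no test. Long genes have more room to overlap a cluster, and the median gene length of each list is therefore given beside the 15.5 kb of all coding genes. Peak counts and strongest peaks given for a gene are those of its whole cluster, which can reach beyond the gene and hold other genes.

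Of the canonical YAP targets, 6 of 23 overlapped a cluster, 26.1%, and 3 had their start inside, 13.0% (median gene length 62.4 kb). Amotl2 and Nuak2 have been described above. Wwc1 (chr11:35728867-35792802) had 20 TEAD peaks at 7 d, 18 at 3 d and 4 in WT, with 2 YAP peaks, and its strongest peak had 49.7. Gadd45b, a stress response gene, shared a cluster of 19, 13 and 2 TEAD peaks with Lmnb2. Ddah1, which breaks down methylarginines, overlapped only with its end a cluster of 9, 9 and 4 peaks with 2 YAP peaks. The coding start inside that cluster was that of Bcl10, and the strongest peak lay outside Ddah1. Asap1, a GTPase-activating protein for Arf, overlapped a cluster of 11, 7 and 2 peaks without YAP. The best known targets Ctgf, Cyr61 and Ankrd1 were not among the 6. Of the TEAD, VGLL and Hippo pathway genes, 3 of 26 did, 11.5%, and 2 had their start inside, 7.69% (76.6 kb): Wwc1, Amotl2 and Vgll4, a cofactor that competes with YAP for TEAD. Vgll4 lay in a cluster of 10 TEAD peaks at 7 d, 12 at 3 d and 4 in WT with 2 YAP peaks, and its strongest peak had 64.8.

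Of the hepatocyte identity transcription factors, 8 of 24 overlapped a cluster, 33.3%, and 6 had their start inside, 25% (25.3 kb). They included Hnf4a, Foxa2, Foxa3, Cebpa, Nr5a2, Nr0b2 and Nr1i2. The clusters of Hnf4a, the nuclear receptor that maintains the hepatocyte state, of the pioneer factors Foxa2 and Foxa3 and of Nr0b2, a repressor of bile acid synthesis, held no WT TEAD peak. Of all clusters, 19.6% held none. The cluster of Hnf4a overlapped the end of the gene but not its start, and its strongest peak lay beyond the gene. It had 9 TEAD peaks at 7 d and 7 at 3 d with a highest fold enrichment of 10.3. That of Foxa3 had 9 and 6 with 9.43, that of Foxa2 9 and 5 with 28.0, and that of Nr0b2 12 and 8 with 22.1. The strongest peaks of the Foxa3, Foxa2 and Nr0b2 clusters likewise lay outside these genes. The cluster of Cebpa had the strongest peak among these, at 46.9, and held 10 peaks at 7 d, 12 at 3 d and 1 in WT. That strongest peak lay outside Cebpa. Nr0b2 was the only one of the 8 with a YAP peak at 7 d in its cluster, and it had 2. Of all clusters, 32.3% held one.

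Of the plasma protein and apolipoprotein genes, 11 of 26 had their start inside a cluster, 42.3% (10.1 kb). They were Alb, Afp, Ttr, Trf, Ahsg, Hp, Fga, Fgb, Fgg, Apoa1 and Apoe. Alb and Afp shared a cluster, as did the 3 fibrinogen genes Fga, Fgb and Fgg, so the 11 genes stood for 8 clusters. All 8 held WT TEAD peaks, 1 to 7 of them, beside 80.4% of all clusters that held any. Transferrin, Trf, lay in a cluster of 12 TEAD peaks at 7 d, 15 at 3 d and 3 in WT with a strongest peak of 35.9, outside Trf. Apoe, at the apolipoprotein E locus, lay in one of 16, 17 and 5 with a strongest peak of 40.3, outside Apoe. YAP peaks at 7 d were found in 3 of the 8, at Alb/Afp, at Hp, which codes for haptoglobin, and at Apoe, beside 32.3% of all clusters.

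Of the AP-1 and immediate early genes, 6 of 20 had their start inside a cluster, 30% (6.29 kb): Fos, Fosb, Junb, Ier3, Zfp36 and Bcl6. Fos, a subunit of AP-1, had 9 TEAD peaks at 7 d, 6 at 3 d and none in WT. The strongest peak of its cluster at 7 d had 40.5 and lay outside Fos. Junb, another AP-1 subunit, shared a cluster of 14, 12 and 2 peaks with the starts of Rtbdn, Rnaseh2a, Prdx2 and Hook2. The strongest peak of that cluster, at 50.5, lay outside Junb. The clusters of Fos and of Junb each held 1 YAP peak. Zfp36, which speeds the decay of cytokine mRNAs, shared a cluster of 10, 11 and 4 peaks, without a YAP peak, with the starts of Plekhg2, Med29 and Paf1. The strongest peak of that cluster, at 60.3, lay outside Zfp36.

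Of the biliary and progenitor genes, 6 of 20 overlapped a cluster, 30%, and 3 had their start inside, 15% (11.5 kb). Krt18, a keratin of hepatocytes and bile duct cells, had 10 TEAD peaks at 7 d, 6 at 3 d and 2 in WT with 2 YAP peaks. Spp1 had 8, 2 and none. Hes1, a target of Notch, had 9, 6 and 1, and the receptor gene Notch1 overlapped a cluster of 10, 6 and 1 with a strongest peak of 53.4 and 1 YAP peak. Itgb4, an integrin subunit, overlapped only with its end a cluster of 9, 6 and 1 that held the starts of Galk1, H3f3b and Unk. In each of these 5 clusters the 7 d list had more TEAD peaks than the 3 d list, which the choice of the clusters favours.

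Of the actin cytoskeleton and adhesion genes, 6 of 24 overlapped a cluster, 25%, and 5 had their start inside, 20.8% (48.4 kb). They included Actb, Actn4, Myh9, Zyx and Pxn, which code for actin, actinin, a heavy chain of nonmuscle myosin, zyxin and paxillin. Myh9 had 15 TEAD peaks at 7 d, 13 at 3 d and 3 in WT with 2 YAP peaks and a strongest peak of 62.9. Zyx had 9, 8 and 3 with no YAP peak and a strongest of 23.4, outside Zyx. Of 19 markers of other liver cells, such as Pecam1 of endothelium, Ptprc of leukocytes and Col1a1 of fibroblasts, none overlapped a cluster, in a list whose median gene length was 26.6 kb. Beside 3.14% of all coding genes, a list of 19 is too short to tell a count of 0 from that share.

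**Figure D5:**
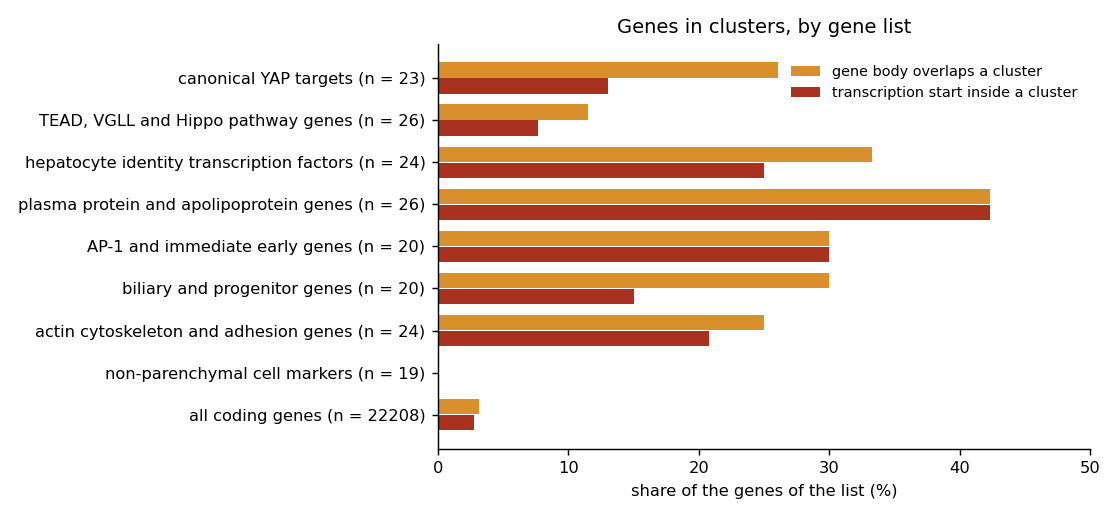
Share of the genes of each list whose body overlaps a cluster (orange) or whose transcription start lies inside one (red), with the number of annotated genes in parentheses and all coding genes at the bottom. The plasma protein and apolipoprotein genes reach 42.3% on both measures and all coding genes 3.14% and 2.77%. The markers of non-parenchymal cells stand at 0% of 19 genes, too few to tell from the share of all coding genes.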

How the data were processed

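The members and the gene lists were chosen with earlier results of these data known. The authors aligned reads to mm9 with BWA 0.6.2, merged the replicates of each group, removed duplicates and called peaks with MACS2 2.0.9 (versions from the submitters' processing notes and the file headers). Per the file headers, the p-value cutoff was 1e-05, tags were 51 bp long, and a control of 167176362 tags, taken from published data according to the methods, served all 6 lists. The deposited lists give peak positions, the pileup at the summit (a signal, in fragments), the fold enrichment (a ratio to the local background), and the −log10 of p-value and of q-value. Of the 7 d TEAD list, 38 peaks on other chromosomes or unplaced sequence were left out.

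Chains, overlaps of at least 1 bp, Wilson intervals and order-statistic intervals of medians, at 95%, were computed with Python 3.11.15, pandas 2.3.3 and SciPy 1.17.1, and sequences were read with pysam 0.24.0 from NCBIM37. The chaining was tested on simulated peaks. Genes came from GENCODE vM1, and a gene counted as in a cluster when its body or a start overlapped the span. Depth limits how many weak peaks each list can hold.

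Clusters named in the text were the 10 with most 7 d TEAD peaks, the 5 highest by length, by peaks per 10 kb, by 7 d YAP peaks, by median fold enrichment and by WT TEAD peaks, and those of list genes. Clusters named for close neighbours, for YAP peaks at 3 d, for the most peaks seen at 7 d alone, and Oraov1/Ccnd1, were chosen after their values were seen. Alternatives were other gaps and numbers of peaks, a stricter p-value, other overlaps, promoters and windows, and leaving out the YAP-rich domain. Some list genes are not reported here by name.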

Additional observations from a re-analysis of the deposited data

How the results depend on the processing

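The numbers below rest on the rule. With a gap of 6.25 kb there were 111 clusters of 21.7 kb at the median, and 19.3% of their peaks were at a WT TEAD peak and 7.85% at a 7 d YAP peak, while 45% of clusters overlapped a 3 d cluster. With 25 kb these values were 935, 68.4 kb, 16.0%, 4.05% and 66.7%, with 74.9% of peaks at a 3 d TEAD peak. With at least 6 peaks there were 886 clusters of 27.5 kb, with 75.5% of peaks at a 3 d and 4.27% at a YAP peak, 25.3% of clusters with YAP and 64.0% overlapping a 3 d cluster. With at least 12 there were 86 of 55.0 kb, with 20.5% of peaks at WT, 6.33% at YAP and 25.6% at promoters, and 40.7% of clusters with YAP. With 7 d peaks at a −log10 p-value of at least 10 there were 234 of 36.9 kb, with 20.7% of peaks at WT, 82.3% at 3 d, 6.25% at YAP, 25.9% at promoters and 41.7% with the TEAD core, 40.2% of clusters with YAP, 73.5% overlapping a 3 d cluster, and a median fold enrichment of 8.48. Without the YAP-rich domain, and with the gap and number of peaks of the rule, 4.05% of peaks were at YAP. The YAP shares of the other alternatives include that domain and were not recomputed without it. By the rule its 2 clusters held 32 and 13 peaks, 29 and 11 of them at a YAP peak. Both therefore stay in the smaller set of at least 12 peaks and weigh more in its YAP shares. An overlap of 50% of the shorter peak gave 75.5% at 3 d, beside 70.1% of all 7 d TEAD peaks. Summits at most 100 bp apart gave 13.3%, 62.6% and 3.96% at WT, 3 d and YAP, beside 11.6%, 59.8% and 3.14% of all. When the 7 d and 3 d lists were limited to as many of their strongest peaks as the WT list holds, 59.2% of the 719 cluster peaks left were at WT, beside 52.4% of all 7 d peaks left. Promoters of 1000 bp on either side took 23.7% and those of coding genes 25.1%, beside 26.2% and 27.0% of all 7 d TEAD peaks. The core was in 34.0% of windows of 200 bases and 43.5% of whole peaks, beside 35.2% and 43.5% of all. The strongest peaks alone had a median fold enrichment of 24.3. The other 29 of 73 recomputed values moved by less than their interval, or for a count by less than 1.5 times, in any direction.

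No paired analysis was possible because each list was called on the pooled replicates of its group, which also left no replicate to take out in turn. The lists hold called peaks only, so a site just under the caller's limit and a site without binding cannot be told apart. The WT TEAD list had the fewest tags of the TEAD lists, 35168765, and the longest fragments, 400 bp, and their part in its lower number of peaks was not tested.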
